A study of Mus musculus with 4 samples.

Results

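The genes described here are the mouse potassium, sodium and calcium channel genes: all genes whose symbol starts with Kcn, with Scn and a digit, or with Cacn. The rule took 138 of the 24453 genes in the count files, of which 98 were potassium, 14 sodium and 26 calcium channel genes. The libraries came from tongue epithelium of mouse embryos at embryonic day 16, taken without the circumvallate papilla (the large taste papilla at the back of the tongue) and sorted with an antibody against the epithelial surface protein EpCAM, and the question the labels give is what Polycomb repressive complex 1 (PRC1) does in this epithelium. The 2 control libraries are labelled only as control. The 2 libraries labelled 2KO carry the genotype Ring1a-/- Ring1bfl/fl K14-Cre+, a germline null allele of Ring1 (Ring1a) with a conditional allele of Rnf2 (Ring1b) that is cut by Cre driven by the keratin 14 promoter, which is active in basal cells of stratified epithelia.

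Voltage-gated channels are membrane pores that open when the voltage across the membrane changes, and in nerve and muscle sodium channels carry the upstroke of the action potential, calcium channels turn it into a calcium signal, and potassium channels end it. Each is built from a pore-forming subunit and auxiliary subunits that set its level at the membrane and its gating. Most epithelial cells are not excitable in this way, and in them potassium channels are best known for setting the membrane potential and supporting the transport of salt and water. PRC1 is a chromatin complex that keeps many developmental genes silent, and RING1 and RNF2 are the alternative enzymes that give it its activity of attaching ubiquitin to histone H2A.

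The 4 libraries held between 16256569 and 20624055 counts on genes, so that 1 read was worth 0.0490 to 0.0586 CPM (the usual counts scaled to library size, with library sizes adjusted by the TMM method). Ribosomal RNA reads assigned to Rn45s made up 15.3% and 16.7% of the control counts and 20.2% and 22.9% of the 2KO counts. The genes named in the genotype did not have fewer counts in 2KO: Ring1 stood at 9.01 and 8.56 CPM in control and 16.8 and 15.0 CPM in 2KO (edgeR adjusted p = 0.101), and Rnf2 at 34.0 and 51.3 CPM against 62.8 and 62.4 CPM (adjusted p = 0.126). Counts per gene do not show whether a deleted stretch is missing from the transcript, so the genotype was not checked by these values. The labels do not say whether the 2 libraries of a group came from separate embryos, and p-values then measure only the spread between libraries, which may be technical.

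Of the 138 channel genes, 128 had at least 1 read in some library and 90 had enough reads to be tested (edgeR quasi-likelihood test, all 4 libraries, Benjamini-Hochberg adjustment over all 15336 genes tested, called at an adjusted p under 0.05). Of the 90, 25 rose in 2KO, 1 fell and 64 did not pass the test, and 48 were not tested. Over all tested genes 7.0% rose, 4.92% fell and 11.9% were called in either direction, while 27.8% of the tested channel genes rose. In 22 of the tested channel genes only the 2KO group had enough reads to pass the filter, and such genes could hardly be called lower. Among the 59 that passed in both groups, 18 rose and 1 fell, or 30.5% and 1.69%, against 6.72% and 5.44% of the 13290 genes of the whole table that passed in both groups. Counted without any filter, 56 of the 138 (40.6%) were higher in both 2KO libraries than in both controls, against 21.0% of all genes in the files, and 12 (8.70%) were lower in both, against 19.2%. Genes with no read in any library can be neither, and these were 10 of the 138 against 5242 of the 24453. They lower the shares over all genes more than those of the channel genes. The median log2 fold change of the tested channel genes was 0.99, against 0.007 over all tested genes. The increase was at least 4-fold in 22 of the 25 that rose and at least 8-fold in 14. In none of the 26 called channel genes did the control and 2KO libraries overlap. This follows largely from their selection by the test on the same libraries and adds no separate support.

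**Figure D1:**
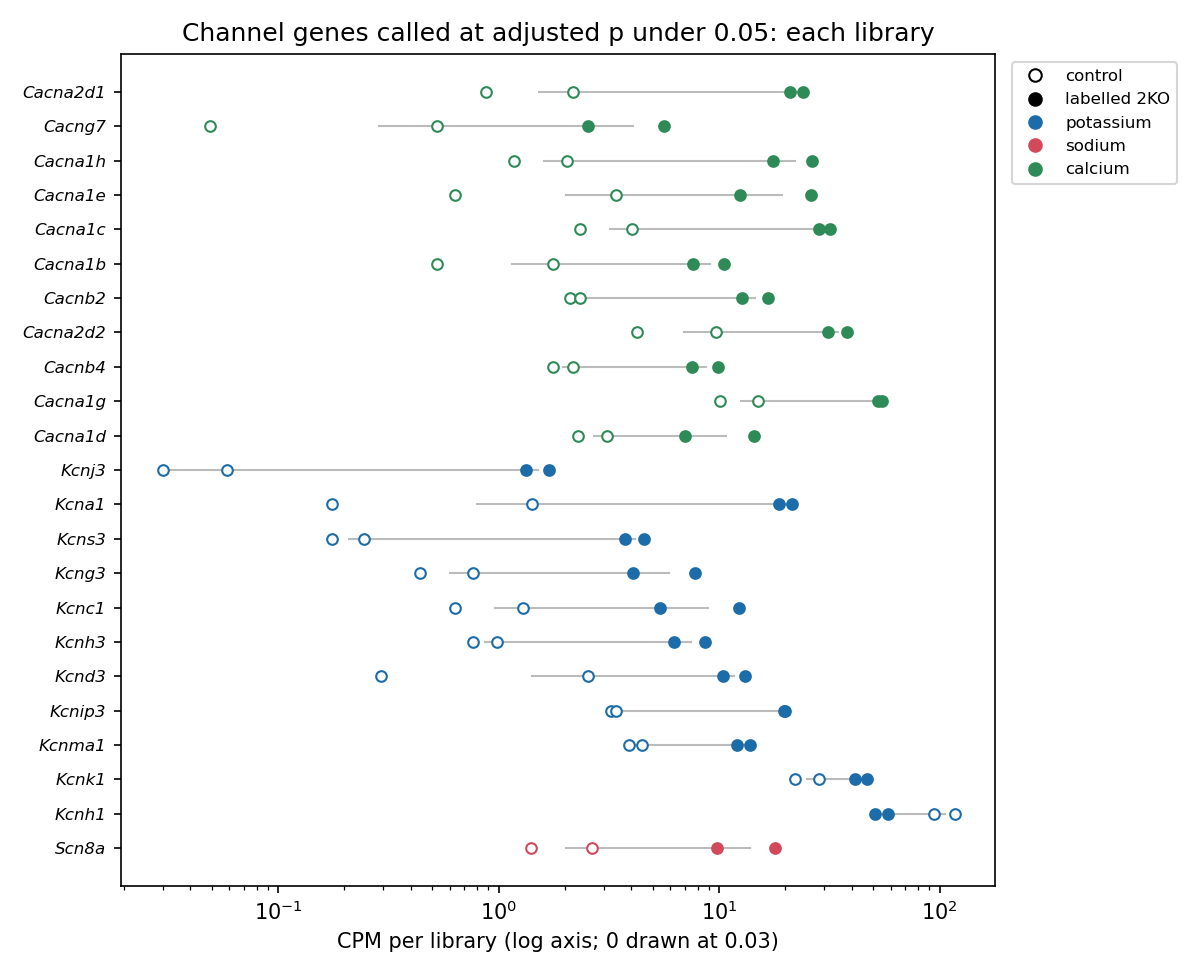
CPM (log axis, 0 drawn at 0.03) of 23 of the 26 called channel genes in each library, with open circles for control, filled circles for the libraries labelled 2KO, and grey lines joining the group means. In 22 genes both filled circles lie to the right of both open ones, and in Kcnh1 they lie to the left.

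The calcium channel genes held the highest share of increases, 11 of 18 tested genes (26 in all), with a median log2 fold change of 2.12. This was 61.1% of the tested calcium channel genes. Among potassium channel genes 12 of 63 tested (19.0%) rose and 1 fell (98 in all, median 0.75), and among sodium channel genes 2 of 9 tested (22.2%) rose and 0 fell (14 in all, median 0.16). No sodium or calcium channel gene fell by edgeR, by DESeq2 or at an unadjusted p under 0.05 (0 each). Among genes that passed the filter in both groups the shares were 10 of 15 calcium, 7 of 37 potassium and 1 of 7 sodium channel genes. Calcium channel transcripts summed to 87.6 and 107.1 CPM in control and 311.0 and 310.9 CPM in 2KO. Protein-coding potassium channel transcripts summed to 335.1 and 330.1 CPM in control and 466.4 and 420.1 CPM in 2KO, and sodium channel transcripts to 25.4 and 18.9 CPM against 53.0 and 48.2 CPM. All 3 sums were therefore higher in both 2KO libraries than in both controls, by unequal factors. Calcium channel genes made up 19.6% and 23.5% of protein-coding channel CPM in control and 37.5% and 39.9% in 2KO, and the potassium share was 74.8% and 72.4% against 56.2% and 53.9%. The groups did not overlap in either share. The exact two-sided permutation p of each was 0.333, the smallest that 2 libraries against 2 allow. The sodium share was 5.67% and 4.14% in control and 6.38% and 6.18% in 2KO. The difference in the share of increases between the families was not tested.

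**Figure D2:**
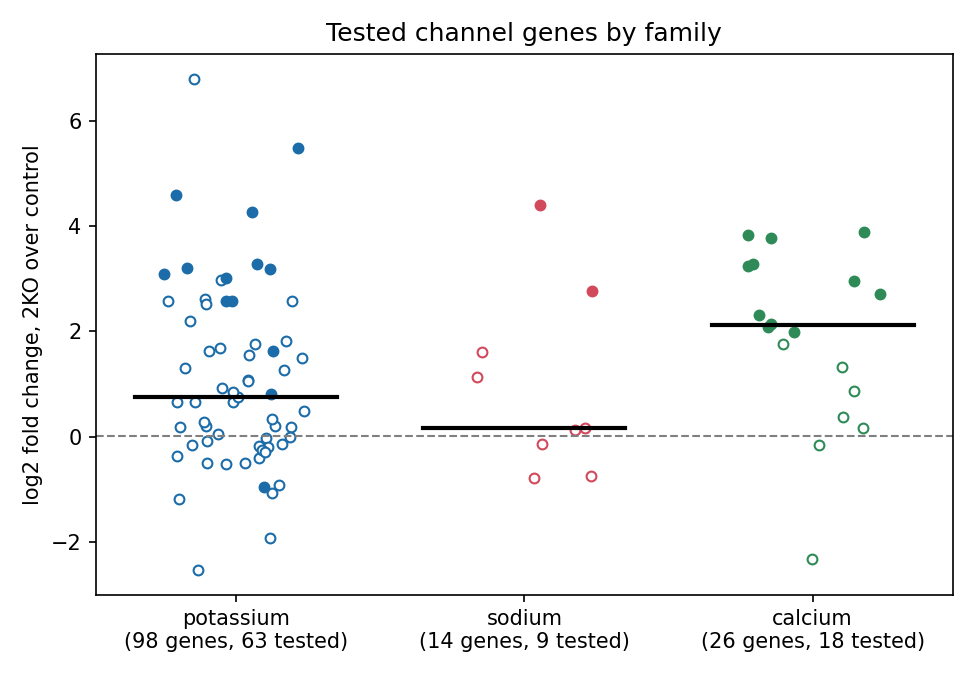
Log2 fold change of 2KO over control of each tested channel gene by family, with filled points for genes called at an adjusted p under 0.05, open points for the others, black bars at the family medians (0.75 for potassium, 0.16 for sodium and 2.12 for calcium) and a dashed line at 0.007, the median of all tested genes. The highest potassium point is Kcnj4, which had no read in either control, so that its fitted position depends on the prior count.

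The pore-forming subunits of voltage-gated calcium channels rose in 6 of the 7 tested genes, out of 10 in all, and their sum went from 25.8 and 27.9 CPM to 149.5 and 152.6 CPM. Cacna1c, the L-type pore of heart and smooth muscle (chr6:118587240-119196418, minus strand, mm10), stood at 2.35 and 4.05 CPM in control and 28.3 and 31.8 CPM in 2KO. Both 2KO libraries were far above both controls, a log2 fold change of 3.24 ± 0.34 (SE, adjusted p = 0.000272). The other tested L-type pore gene, Cacna1d, known from hearing and pacemaking cells, had 2.30 and 3.11 CPM in control and 14.5 and 7.02 CPM in 2KO (log2 fold change 1.99 ± 0.51, adjusted p = 0.0296). Its higher 2KO library carried the call: without 2KO replicate 1 the log2 fold change was 1.37 (adjusted p = 0.329).

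T-type channels open at lower voltages than the L-type. Cacna1g, a T-type pore (chr11:94408391-94474198, minus strand), had the highest mean FPKM of the calcium channel pores in both groups (fragments scaled to transcript length and library size, 1.83 in control and 7.17 in 2KO). It stood at 15.1 and 10.1 CPM in control and 52.7 and 54.6 CPM in 2KO (log2 fold change 2.09 ± 0.25, adjusted p = 0.000545). Its paralog Cacna1h (chr17:25374285-25433783, minus strand) stood at 1.18 and 2.05 CPM in control and 26.5 and 17.6 CPM in 2KO (log2 fold change 3.77 ± 0.43, adjusted p = 0.000387). Both 2KO libraries were more than 8-fold above the higher control. The third T-type pore gene, Cacna1i, had 6 reads in 2KO replicate 1 and 0 in the other libraries.

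The pores of P/Q-, N- and R-type channels, which at synapses trigger transmitter release, gave a mixed result. Cacna1e, the R-type pore, stood at 0.637 and 3.40 CPM in control and 12.5 and 26.3 CPM in 2KO (log2 fold change 3.28 ± 0.65, adjusted p = 0.00928). The libraries of each group differed widely, and the log2 fold change lay between 2.53 without control replicate 1 and 4.92 without control replicate 2. Cacna1b, the N-type pore, had 1.76 and 0.528 CPM in control and 7.65 and 10.5 CPM in 2KO (log2 fold change 2.96 ± 0.65, adjusted p = 0.0151), and its log2 fold change was 4.11 without control replicate 1 and 2.36 without control replicate 2. Cacna1a, the P/Q-type pore, did not pass the test (2.16 and 3.28 CPM in control, 6.80 and 3.16 CPM in 2KO, adjusted p = 0.417), and its groups overlapped.

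Among the auxiliary subunits of calcium channels 5 of 11 tested genes rose, out of 16 in all. The alpha2delta subunits, which sit on the outer face of the membrane and raise the number of channels there, include the target of gabapentin, Cacna2d1 (chr5:15934691-16374511, plus strand). Cacna2d1 stood at 0.882 and 2.17 CPM in control and 24.0 and 21.1 CPM in 2KO, a log2 fold change of 3.90 ± 0.45 (adjusted p = 0.000441), and of 4.67 without control replicate 2. Cacna2d2 (chr9:107399612-107529343, plus strand) had 4.26 and 9.68 CPM in control and 38.1 and 31.3 CPM in 2KO (log2 fold change 2.32 ± 0.37, adjusted p = 0.00254; 3.03 without control replicate 2). Cacna2d3 and Cacna2d4 did not pass the test (adjusted p = 0.208 and 0.211), Cacna2d3 being higher in both 2KO libraries and Cacna2d4, at 0.784 and 2.70 CPM in control, lower in both at 0.340 and 0.346 CPM.

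The promoter windows of both called alpha2delta genes are given here, from 250 bases before to 50 after the start of the gene (RefSeq, GRCm38.p6, the assembly called mm10), because both genes rose several-fold from low control levels. Each is written 5′ to 3′ along the gene with every CG dinucleotide in capitals. For contrast the windows of Kcnh1, the channel gene that fell, and of Scn11a, a sodium channel gene that did not pass the test, stand beside them. The 4 windows were chosen after the values were seen. They lie at chr5:15934441-15934740 (plus strand) for Cacna2d1, chr9:107399630-107399929 (plus) for Cacna2d2, chr1:192190527-192190826 (plus) for Kcnh1 and chr9:119825407-119825706 (minus) for Scn11a.
Cacna2d1: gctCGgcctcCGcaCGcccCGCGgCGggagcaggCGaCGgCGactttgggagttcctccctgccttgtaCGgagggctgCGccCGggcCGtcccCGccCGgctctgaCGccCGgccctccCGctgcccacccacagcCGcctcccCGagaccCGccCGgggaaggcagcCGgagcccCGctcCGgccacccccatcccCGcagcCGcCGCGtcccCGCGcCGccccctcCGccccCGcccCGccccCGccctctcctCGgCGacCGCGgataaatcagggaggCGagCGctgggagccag
Cacna2d2: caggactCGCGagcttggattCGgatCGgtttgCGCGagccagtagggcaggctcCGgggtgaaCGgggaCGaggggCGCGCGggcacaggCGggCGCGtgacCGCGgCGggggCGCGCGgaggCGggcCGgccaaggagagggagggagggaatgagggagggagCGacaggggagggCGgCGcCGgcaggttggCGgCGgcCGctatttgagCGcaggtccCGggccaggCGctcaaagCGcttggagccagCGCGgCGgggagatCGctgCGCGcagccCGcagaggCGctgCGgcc
Kcnh1: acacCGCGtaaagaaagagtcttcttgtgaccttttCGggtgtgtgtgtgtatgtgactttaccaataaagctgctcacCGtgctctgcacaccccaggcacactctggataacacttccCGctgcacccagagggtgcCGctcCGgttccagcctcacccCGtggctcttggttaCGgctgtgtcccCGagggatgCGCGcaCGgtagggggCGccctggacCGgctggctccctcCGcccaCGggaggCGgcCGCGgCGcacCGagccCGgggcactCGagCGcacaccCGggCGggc
Scn11a: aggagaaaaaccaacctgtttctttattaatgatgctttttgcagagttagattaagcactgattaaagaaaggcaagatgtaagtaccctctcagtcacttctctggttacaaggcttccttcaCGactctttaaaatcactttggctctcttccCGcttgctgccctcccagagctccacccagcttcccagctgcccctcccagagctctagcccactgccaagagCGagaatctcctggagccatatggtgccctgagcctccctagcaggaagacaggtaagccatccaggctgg
The search for CG, which reads the same on both strands, found 42 in the Cacna2d1 window, 43 in that of Cacna2d2, 27 in that of Kcnh1 and 3 in that of Scn11a. Of 18159 gene windows of the same length 95.3% held at least 1 CG, and the median was 13. Genes that rose lay on both sides of this median, with 3 CG in the window of Cacna1c, 4 in that of Cacna1d and 49 in that of Kcng3, and Kcnmb4, which did not pass the test, had 48. Where a gene had several annotated starts, only the window of the most upstream one was used. Cacna1c had 3 windows and Cacna1d 2, so their CG counts describe 1 start each. Windows were at hand for 102 of the 138 channel genes and for 18 of the 25 that rose, which is 72%, so no summary over the genes that rose is drawn from them.

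The beta subunits bind calcium channel pores inside the cell and carry them to the membrane. Cacnb2 (chr2:14603088-14987908, plus strand) stood at 2.11 and 2.35 CPM in control and 16.6 and 12.7 CPM in 2KO (log2 fold change 2.71 ± 0.42, adjusted p = 0.00232). Cacnb4 had 1.76 and 2.17 CPM in control and 9.91 and 7.56 CPM in 2KO (log2 fold change 2.15 ± 0.52, adjusted p = 0.0229), a call that was lost without 2KO replicate 1 (adjusted p = 0.127). Cacnb3, the beta subunit gene with the highest FPKM in control, stood at 44.1 and 48.7 CPM, and with 53.1 and 66.8 CPM in 2KO it did not pass the test (log2 fold change 0.37 ± 0.20, adjusted p = 0.25). Its log2 fold change was -0.30 after a correction for GC content and transcript length. Cacnb1 had 5.19 and 6.45 CPM in control and 7.42 and 5.59 CPM in 2KO (adjusted p = 0.863). The beta subunits that rose were those with the lower mean FPKM in control, 0.456 for Cacnb2 and 0.161 for Cacnb4 against 2.34 for Cacnb1 and 22.8 for Cacnb3.

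The gamma subunit genes of this symbol series include regulators of glutamate receptors as well as a subunit of the muscle calcium channel. Cacng7 (chr7:3332955-3368221, plus strand) stood at 0.0490 and 0.528 CPM in control and 2.55 and 5.64 CPM in 2KO (log2 fold change 3.84 ± 1.09, adjusted p = 0.0426), and the call was lost without 2KO replicate 2 (adjusted p = 0.288) and with limma-voom (adjusted p = 0.0796). Its log2 fold change was 2.96 without control replicate 1 and 6.21 without control replicate 2. Cacng4 was higher in both 2KO libraries (5.04 and 4.10 CPM) than in both controls (1.52 and 2.11 CPM) and did not pass the test (adjusted p = 0.212). Cacng2, Cacng3 and Cacng6 had no read in any library.

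Potassium channel pores rose in 9 of 44 tested genes and fell in 1, out of 67 in all. Kcnc1, a fast Kv3 channel that lets neurons fire at high rates, had 0.637 and 1.29 CPM in control and 5.38 and 12.4 CPM in 2KO (log2 fold change 3.21 ± 0.66, adjusted p = 0.0111). Its log2 fold change was 3.79 without control replicate 2 and 2.47 without 2KO replicate 2, where the call was lost (adjusted p = 0.144). Kcnc4 did not pass the test, with overlapping groups (adjusted p = 0.901).

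Kcna1, a Kv1 channel of axons (chr6:126640397-126646384, minus strand), stood at 1.42 and 0.176 CPM in control and 18.8 and 21.4 CPM in 2KO, a log2 fold change of 4.60 ± 0.64 (adjusted p = 0.00124). In proportion the controls differed more from each other than the 2KO libraries did, and the log2 fold change was 6.80 without control replicate 1 and 3.82 without control replicate 2. The Kv2 channel gene Kcnb2 did not pass the test (1.72 and 1.41 CPM in control, 3.34 and 1.63 CPM in 2KO, adjusted p = 0.653). Kcnd3, a Kv4 channel of the transient outward current, stood at 2.55 and 0.293 CPM in control and 10.4 and 13.1 CPM in 2KO (log2 fold change 3.02 ± 0.74, adjusted p = 0.0248), with 5.31 without control replicate 1 and 2.21 without control replicate 2.

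The electrically silent Kv subunits form no channel of their own and modify Kv2 channels. Of the 10 such genes 5 were tested and 2 rose. Kcng3 stood at 0.441 and 0.762 CPM in control and 7.76 and 4.05 CPM in 2KO (log2 fold change 3.29 ± 0.75, adjusted p = 0.0179). Kcns3 stood at 0.245 and 0.176 CPM in control and 4.59 and 3.76 CPM in 2KO (log2 fold change 4.26 ± 0.90, adjusted p = 0.0127). Both were under 1 CPM in both controls, Kcns3 with the fewer reads. Both calls were lost without 2KO replicate 1 (log2 fold change 2.74 and 4.11) and with limma-voom (adjusted p = 0.0511 and 0.0561). Kcng1 and Kcng2 were also higher in both 2KO libraries without passing the test (adjusted p = 0.38 and 0.114), and the groups of Kcnv1 overlapped.

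Among the potassium channel auxiliary subunits 1 of 12 tested genes rose, out of 17 in all. This was Kcnip3, which codes for the calcium-binding Kv4 partner KChIP3, known also as the transcriptional repressor DREAM (chr2:127456498-127522094, minus strand). Kcnip3 stood at 3.23 and 3.40 CPM in control and 19.8 and 19.9 CPM in 2KO, a log2 fold change of 2.58 ± 0.34 (adjusted p = 0.00087), with replicates that were close in both groups. Kcnip1 was higher in both 2KO libraries, 3.17 and 7.07 CPM against 1.23 and 0.469 CPM, and did not pass the test (adjusted p = 0.0584). The 3 Kv beta genes did not pass the test either (adjusted p between 0.411 and 0.546).

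The EAG and ERG group held both directions. Kcnh1, the EAG1 channel (chr1:192190774-192510159, plus strand), was the only channel gene that fell. It stood at 117.7 and 94.4 CPM in control and 58.2 and 51.0 CPM in 2KO, a log2 fold change of -0.96 ± 0.18 (adjusted p = 0.00796), so that both 2KO libraries held about the same level and both controls a higher one. On the deposited FPKM values (17.3 and 13.7 in control, 8.95 and 7.35 in 2KO) the adjusted p was 0.0728 and 0.0734 with pseudocounts of 1 and 0.1, past the threshold in neither. Kcnh3, an ELK channel of brain, rose from 0.980 and 0.762 CPM to 8.67 and 6.23 CPM (log2 fold change 3.08 ± 0.62, adjusted p = 0.00982), a call that was lost by a little without 2KO replicate 1 (adjusted p = 0.0519). Kcnh2, the ERG channel of cardiac repolarization, had 1.08 and 0.410 CPM in control and 3.74 and 4.89 CPM in 2KO and did not pass the test (adjusted p = 0.0669).

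Of the potassium channels that open with calcium, Kcnma1, the large-conductance BK channel, rose from 3.92 and 4.46 CPM to 13.9 and 12.0 CPM (log2 fold change 1.63 ± 0.39, adjusted p = 0.0223). The call was lost without 2KO replicate 1 (adjusted p = 0.108). Kcnn4, the intermediate-conductance channel of epithelia and blood cells, had 0 and 1.41 CPM in control and 0.340 and 0.791 CPM in 2KO, with overlapping groups (adjusted p = 0.93) and a direction that depended on the setting. The BK beta subunit gene Kcnmb4 did not pass the test (1.81 and 3.58 CPM in control, 1.02 and 1.33 CPM in 2KO, adjusted p = 0.403). Kcnmb4 shares exon bases with the opposite-strand genes Kcnmb4os1 and Kcnmb4os2.

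Among the 14 K2P genes, which code for leak channels that are open at rest, 8 were tested and Kcnk1 (TWIK1) was called. It rose from 22.1 and 28.3 CPM to 46.7 and 41.2 CPM, a log2 fold change of 0.80 ± 0.22 (adjusted p = 0.0406). This was the smallest increase of the 25, and the call was lost without control replicate 1, without 2KO replicate 1 and without 2KO replicate 2 (adjusted p = 0.0786, 0.198 and 0.0672) and with the correction for GC content and transcript length (adjusted p = 0.0574). Kcnk2 (TREK1), at 3.48 and 6.57 CPM in control and 12.4 and 11.6 CPM in 2KO, did not pass the test (adjusted p = 0.0818).

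Inward rectifiers hold the resting potential near that for potassium. Kcnj3, a channel gated by G proteins, had 0 and 1 read in control and 1.70 and 1.33 CPM in 2KO (adjusted p = 0.0453), a ratio of 56.4 with a 95% interval from 9.72 to 2265 that covers counting error only. The call was lost with limma-voom (adjusted p = 0.0688), with the replicate number as a block (0.0779), and without control replicate 1 (0.125), 2KO replicate 1 (0.209) or 2KO replicate 2 (0.164). Kcnj2, the classical inward rectifier of muscle, did not pass the test (8.13 and 10.6 CPM in control, 6.91 and 7.27 CPM in 2KO, adjusted p = 0.565). Kcnj15, with the highest mean FPKM of the group in control, did not pass either (33.9 and 24.8 CPM against 27.6 and 17.8 CPM, adjusted p = 0.437).

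Kcnq1, a Kv7 channel of heart and of secretory epithelium, stood at 0.980 and 2.05 CPM in control and 1.70 and 1.78 CPM in 2KO (adjusted p = 0.912). Kcnq1ot1, the imprinted noncoding RNA that starts inside Kcnq1 and runs against it, was the channel-named gene with the highest counts, at 361.5 and 520.0 CPM in control and 529.8 and 347.5 CPM in 2KO. It did not pass the test (log2 fold change -0.01 ± 0.22, adjusted p = 0.99). Its groups overlapped fully. Kcna6 and Kcne3, named after their values were seen as the members nearest to a further call in the lower direction, were lower in both 2KO libraries without passing the test. Kcna6 had 1.91 and 9.68 CPM in control and 0.850 and 1.14 CPM in 2KO (adjusted p = 0.0734), and Kcne3 had 5.34 and 7.62 CPM against 0.850 and 2.57 CPM (adjusted p = 0.0911).

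**Figure D3:**
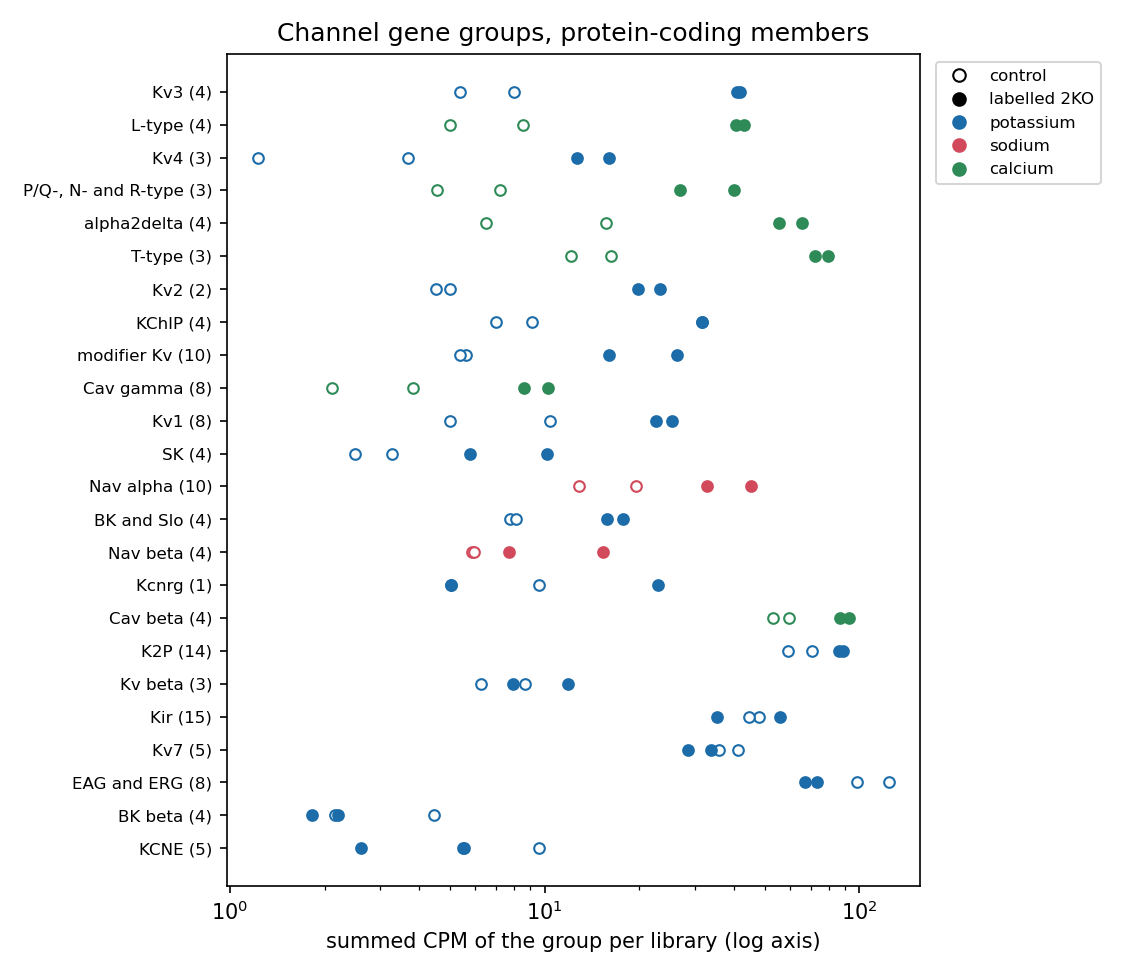
Summed CPM (log axis) of each group of protein-coding channel genes in each library, with the number of genes in parentheses, open circles for control and filled circles for the libraries labelled 2KO, ordered by the ratio of the 2KO to the control mean. The ratio runs from 6.18 for Kv3 at the top to 0.534 for KCNE at the bottom.

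Summed over groups of related genes, the ratio of the 2KO to the control mean was 6.18 for Kv3, 6.17 for L-type, 5.86 for Kv4, 5.68 for P/Q-, N- and R-type, 5.45 for alpha2delta and 5.34 for T-type genes. Ratios under 1 were found for the inward rectifiers (0.988), Kv7 (0.809), the EAG and ERG group, which holds Kcnh1 (0.633), the beta subunits of BK channels (0.611) and the KCNE subunits (0.534). These sums weigh each gene by its counts and carry no test.

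Sodium channel pores rose in 2 of 5 tested genes, out of 10 in all, and none of the 4 beta subunit genes, all tested, was called (0 with edgeR and with DESeq2, and 1 at an unadjusted p under 0.05). Scn8a, a sodium channel of axon initial segments (chr15:100869858-101045938, plus strand), had 2.65 and 1.41 CPM in control and 18.0 and 9.79 CPM in 2KO (log2 fold change 2.76 ± 0.51, adjusted p = 0.00617). Scn11a, the sensory neuron channel whose promoter window is printed with those of the alpha2delta genes, was lower in both 2KO libraries, 4.19 and 6.92 CPM against 9.70 and 9.32 CPM, and did not pass the test (log2 fold change -0.77 ± 0.43, adjusted p = 0.278). The beta subunit gene Scn2b was higher in both 2KO libraries (4.02 and 8.80 CPM against 2.89 and 1.29 CPM, adjusted p = 0.136) and did not pass the test, except without control replicate 1 (adjusted p = 0.0279). Scn7a and Scn10a had no read in any library.

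In all 46 of the 138 genes had another channel gene within 250 kb on the same chromosome, which gave 27 pairs of neighbours. Both genes were tested in 6 of these pairs: in 4 pairs neither gene was called, and in the other 2 pairs 1 gene rose and its neighbour did not pass the test. Kcna1 lies 61.9 kb from Kcna6 and 105.0 kb from Kcna5 on chromosome 6. Kcna1 rose, while Kcna6 was lower in both 2KO libraries without passing the test and Kcna5, with too few reads to be tested, was higher in both (0.227 and 0.692 CPM against 0.0980 and 0 CPM). Cacna1c and Cacna2d4 lie 40.1 kb apart on chromosome 6, and Cacna1c rose while Cacna2d4 was lower in both 2KO libraries without passing the test.

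The second question was how many channel genes were nearly silent in control and came up in 2KO. Under 1 CPM in both controls were 63 of the 138, among them 21 with no read in either control. Of these 63 genes 21 (33.3%) were higher in both 2KO libraries than in both controls, against 14% of the 10178 genes of the whole table that were under 1 CPM in both controls. At least 1 CPM in both 2KO libraries was reached by 9 of the 63 (14.3%), against 4.55% of those genes. Genes with no read in any library cannot rise, and they made up 10 of the 63 but 5242 of the 10178. Part of each gap therefore comes from their larger share of the whole table. No share over genes with a read was taken. In the other direction 50 channel genes were under 1 CPM in both 2KO libraries. Of these 50, 2 were below both controls (Cacna2d4 and Kcnj16, named after their values were seen), against 5.93% of 9566 genes. Genes with no read in any library cannot be lower either, and they made up 10 of the 50 and 5242 of the 9566. The 21 held 19 of the 50 potassium channel genes under 1 CPM in both controls (38%). They also held 1 of 5 such sodium channel genes (Scn9a, 20%) and 1 of 8 such calcium channel genes (Cacng7, 12.5%). Over all genes the share was 14%, and the sodium and calcium shares rest on 1 gene each. No read in any library was found for 5 of the 50 potassium, 2 of the 5 sodium and 3 of the 8 calcium channel genes. These could not rise, so the sodium and calcium shares are not ordered against the 14%. Potassium channel genes made up most of the 21 and also 50 of the 63. The other 10 calcium channel genes that rose had at least 1 CPM in a control library.

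Of the 21, 5 were called (Kcnh3, Kcng3, Cacng7, Kcns3 and Kcnj3), 7 were tested and did not pass and 9 had too few reads to be tested. Among all genes in the files, 1427 were likewise under 1 CPM in both controls and higher in both 2KO libraries. Of these 1427 genes, 171 were called. The 9 channel genes that reached 1 CPM in both 2KO libraries were the 5 called ones with Kcnn1, Kcnj11, Kcnt2 and the antisense transcript Kcnmb4os2. Kcnn1, a small-conductance calcium-activated channel, had 0.686 and 0.117 CPM in control and 1.70 and 4.80 CPM in 2KO (adjusted p = 0.0962). Kcnj11, the pore of the ATP-sensitive channel, had 0.588 and 0 CPM in control and 2.27 and 1.38 CPM in 2KO (adjusted p = 0.247). Kcnt2, a sodium-activated channel, had 0.490 and 0 CPM against 1.30 and 1.04 CPM (adjusted p = 0.36), and Kcnmb4os2 had 0.392 and 0.469 CPM against 1.13 and 1.93 CPM (adjusted p = 0.302). All 4 were higher in both 2KO libraries and did not pass the test with all libraries in edgeR. Kcnn1 was called higher with DESeq2 (adjusted p = 0.0411), without a filter (adjusted p = 0.0278), without control replicate 1 (adjusted p = 0.014) and without 2KO replicate 1 (adjusted p = 0.0494), and Kcnj11 without control replicate 1 (adjusted p = 0.0266).

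No control read was found for 4 of the 21: Kcnj4, Scn9a, Kcnh7 and Kcnq3. Kcnj4, an inward rectifier, had 11 and 17 reads in 2KO, which is at least 9.14-fold higher when the controls are set to a floor of 3 counts over the group, and did not pass the test (adjusted p = 0.0734). Scn9a, the sodium channel of pain-sensing neurons, had 19 and 6 reads in 2KO, at least 8.57-fold higher by the same floor, and was not tested. The number 21 depends on the cutoff: at 0.5 CPM it was 15, and at 2 CPM it was 35.

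**Figure D4:**
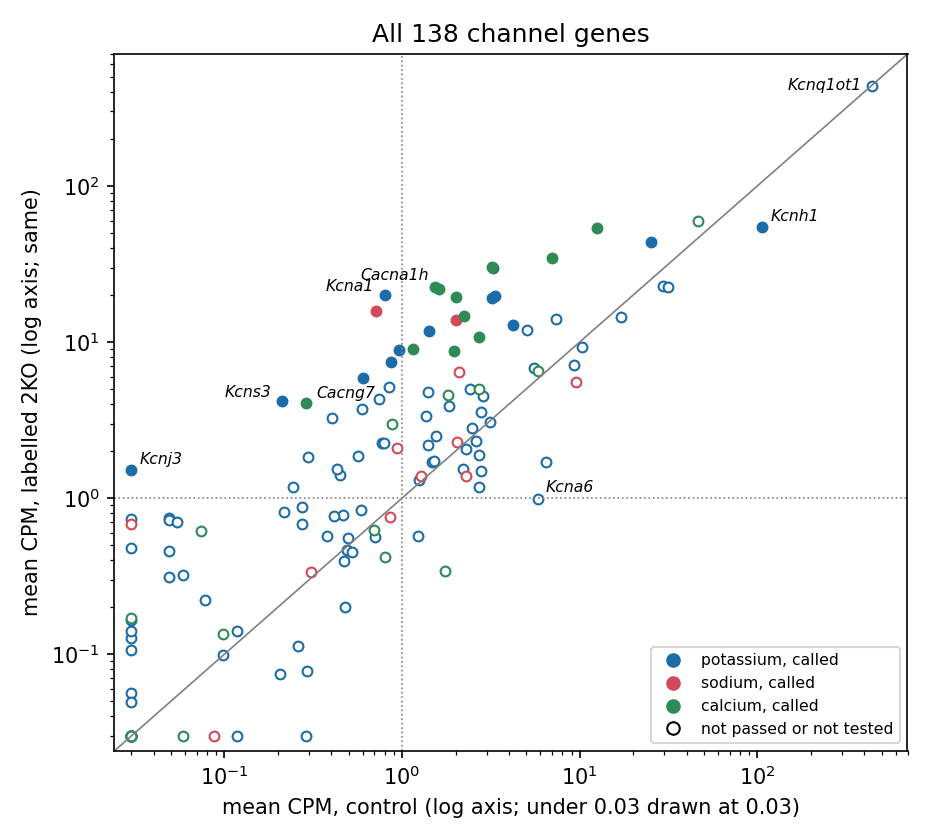
Mean CPM of all 138 channel genes in control (x) and in the libraries labelled 2KO (y), both on log axes with values under 0.03 drawn at 0.03; filled points are called genes, dotted lines mark 1 CPM and the diagonal marks equal levels. Kcnh1 is the filled point below the diagonal, and 5 filled points belong to genes under 1 CPM in both controls.

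Levels can be compared between genes only per transcript length, for which the deposited FPKM values serve. Of the 134 protein-coding channel genes 24 had a mean of at least 1 FPKM in control and 49 in 2KO, and 7 and 11 reached 5 FPKM. In control the order was led by Cacnb3 with 22.8 ± 2.4 FPKM (SD, n = 2 libraries, as for the FPKM values that follow), Kcnh1 with 15.5 ± 2.6, Kcnk1 with 12.6 ± 2.5 and Kcnmb4 with 10.2 ± 4.8. The libraries of Kcnh1 and Kcnk1 overlapped in control, as did those of Kcnk1 and Kcnmb4, so these neighbours are not ordered beyond their spread. Kcnmb4 had far fewer counts than Kcnk1 in both groups, as their CPM values show, though their control FPKM values were close. Counts and FPKM thus place Kcnmb4 differently, and its rank here is uncertain in both groups. The reason was not tested. In 2KO Cacnb3 still led with 28.3 ± 2.4 FPKM, followed by Kcnk1 with 23.1 ± 3.1, Kcnh1 with 8.15 ± 1.1 and Kcnmb4 with 7.57 ± 3.4. Next in 2KO stood Kcnrg with 7.34 ± 6.6, Cacna1g with 7.17 ± 0.72, Kcnip3 with 7.05 ± 0.54 and Cacna2d2 with 6.0 ± 0.95 FPKM, whose means differed by less than the spread of Kcnrg. Cacnb2 moved from rank 45 among the 138 in control to rank 16 in 2KO. Cacna1c, with a long transcript, remained at 1.63 and 1.65 FPKM in 2KO from 0.0692 and 0.230 FPKM in control. The genes that rose had long transcripts: the median of the longest transcript was 7436 bases over the 25 that rose, 4092 over the 90 tested channel genes and 3303 over all tested genes. No such median was taken over all genes called higher, so long transcripts are not shown to be particular to the channel genes that rose.

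With limma on the deposited FPKM values, 12 of the 25 increases held with a pseudocount of 1 and 7 with a pseudocount of 0.1. Among the 7 were Cacna1h, Cacna2d1, Cacna1g, Kcnip3, Cacnb2 and Cacng7, and among the other 5 of the 12 were Kcna1, Cacna2d2, Kcnh3 and Kcnd3. Calls of Cacna1c (adjusted p = 0.0671 and 0.0792) and Scn8a were among those lost on this scale. With a correction of the counts for GC content and transcript length, chosen after seeing the data, 24 channel genes rose and 2 fell while the whole table shifted to 774 genes higher and 1305 lower, from 1073 and 754. The median log2 fold change of all tested genes was then -0.14.

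Exons of 12 of the 26 called channel genes overlap those of another annotated gene, in 3 cases a protein-coding one: Cacna1d with Chdh, Cacna1h with Tpsg1 and Kcnh3 with Mcrs1, the last by 1 base. As no source at hand names the strand setting of the counting, reads in these overlaps cannot be assigned with certainty.

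Proteins that work with these channels were taken from a separate list of 40, of which 34 were tested, 6 rose and 0 fell (0 also with DESeq2, and 2 at an unadjusted p under 0.05). Abcc8, the sulfonylurea receptor that joins Kcnj11 in the ATP-sensitive channel, rose from 7.74 and 9.03 CPM to 41.1 and 32.6 CPM (log2 fold change 2.14 ± 0.27, adjusted p = 0.000623), while Kcnj11 itself did not pass the test. Cntnap1, an axon protein of the node of Ranvier region, rose from 8.33 and 6.80 CPM to 23.8 and 24.2 CPM (adjusted p = 0.00444). Fgf11, of the FGF group that binds sodium channels inside the cell, rose from 13.1 and 9.74 CPM to 30.0 and 26.3 CPM (adjusted p = 0.0122). Amigo1, a membrane partner of Kv2 channels, rose from 21.1 and 18.4 CPM to 35.5 and 39.1 CPM (adjusted p = 0.0261), and lost its call without either 2KO library (adjusted p = 0.0538 without replicate 1 and 0.126 without replicate 2) and with the GC and length correction (adjusted p = 0.112).

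A list of 78 genes of other ion channels, 77 of them in the files, gave 7 higher and 2 lower of 57 tested. Ryr2, the calcium release channel of the heart's internal stores, rose from 2.21 and 1.35 CPM to 23.0 and 17.6 CPM (adjusted p = 0.000453), and Hcn4, the pacemaker channel, from 0.686 and 0.762 CPM to 7.48 and 8.90 CPM (adjusted p = 0.00443). The epithelial sodium channel subunits moved apart: Scnn1g rose from 1.81 and 2.17 CPM to 15.7 and 11.3 CPM (adjusted p = 0.00296), and Scnn1a fell from 36.0 and 31.4 CPM to 12.6 and 8.90 CPM (adjusted p = 0.00343). The shares called higher were 17.6% of the tested partners and 12.3% of the tested other channels. Both lay below the 27.8% of the channel genes and above the 7.0% of all tested genes. Other measures gave a different order. Of the 40 partners 24 (60%) were higher and 3 lower in both 2KO libraries than in both controls. Of the 138 channel genes these were 56 (40.6%) and 12, and of the 77 other channels 29 and 14. The partners' median on the log2 scale, 0.959, was close to the 0.99 of the channel genes, and the other channels had 0.412. Increases were therefore not shown to be particular to the channel genes, and differences between the lists were not tested.

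Many of these channels are best known from nerve and muscle, so marker genes of other cell types were measured in the same libraries, given in the order control 1, control 2, 2KO 1 and 2KO 2. The 10 epithelial markers summed to 23900, 19870, 14680 and 15000 CPM, and 4 of them fell (Krt5, Krt14, Perp and Dsp). Epcam itself stood at 221.0, 188.9, 215.7 and 244.6 CPM (adjusted p = 0.542). The 12 neuron markers summed to 45.5, 51.3, 40.2 and 65.8 CPM with overlapping groups, and of 10 tested Elavl3 rose (0.686 and 0.0586 CPM against 6.74 and 3.46 CPM) while Tubb3 fell (15.6 and 8.39 CPM against 2.72 and 1.83 CPM). The sum is carried by few markers: of the 12, 4 were higher and 2 lower in both 2KO libraries than in both controls. The median log2 fold change of the 10 tested neuron markers was 0.9, against 0.007 over all tested genes. Merkel cell markers, which mark touch-sensing epithelial cells, summed to 28.1, 32.6, 69.1 and 72.5 CPM, higher in both 2KO libraries, and 2 of 4 tested rose (Piezo2 and Insm1). Skeletal muscle markers summed to 66.7, 446.7, 70.9 and 83.3 CPM, high in control replicate 2, with 0 of 11 tested genes called by edgeR, 1 lower by DESeq2 and 5 lower at an unadjusted p under 0.05. Schwann cell and neural crest markers summed to 138.2, 86.6, 83.1 and 107.1 CPM with 0 of 6 called by edgeR and 1 higher both by DESeq2 and at an unadjusted p under 0.05. Erbb3 alone supplied 126.6, 75.2, 74.8 and 91.8 CPM, so this sum mostly follows 1 gene. Of the 8 markers 2 were higher and 1 lower in both 2KO libraries than in both controls. Fibroblast markers summed to 308.4, 373.6, 377.3 and 337.7 CPM with 1 of 7 tested lower (Postn), and endothelial markers to 34.1, 23.9, 38.9 and 64.5 CPM with 0 of 10 called by edgeR, 1 higher by DESeq2 and 2 higher at an unadjusted p under 0.05. The endothelial sum was higher in both 2KO libraries. Of the 10 endothelial markers 5 were higher and 0 lower in both 2KO libraries than in both controls, with a median log2 fold change of 1.215. Melanocyte markers summed to 10.04, 12.3, 13.8 and 14.2 CPM with Tyr and Tyrp1 at 0 in every library, and 0 of the 2 tested passed edgeR, DESeq2 or an unadjusted p under 0.05. Blood and immune markers summed to 30.9, 24.8, 56.4 and 46.3 CPM, with Cd68 higher (1 of 4 tested) and Hba-a1 at 0. Of the 7 in the files, 2 were higher and 2 lower in both 2KO libraries than in both controls. Alas2, at 7.1, 7.3, 3.8 and 2.4 CPM, was the 1 lower at an unadjusted p under 0.05 and did not pass edgeR (adjusted p = 0.155). The part of these marker levels in the channel results was not tested, and in bulk libraries a change in the number of cells of a type and a change in RNA per cell cannot be told apart.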

How the data were processed

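RNA was measured in 4 libraries of sorted tongue epithelium, 2 control and 2 labelled 2KO, grouped by their genotype labels; per the labels' protocols 15 ng of RNA was amplified and read as single 100-nt reads. The authors deposited whole-number counts per gene for each library and a table of FPKM values for all libraries. TopHat2 2.0.13, Cufflinks 2.2.1, HTSeq 0.6.1, DESeq2 1.6.3 and the build mm10 are named in the submitters' processing notes; which of them made which values is not given in the sources used here, nor is the annotation or the strand used in counting. Total counts were 16256569 to 20624055 per library. Replicates differed by more than sampling noise (chi-square per degree of freedom 28.7 in control and 22.7 in 2KO), so neither pair was treated as repeat deposits of 1 library; this does not show that they came from separate embryos.

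All genes were fitted together in R 4.3.3 with edgeR 4.0.16 (TMM, filterByExpr, quasi-likelihood test without covariates, Benjamini-Hochberg over 15336 genes, threshold 0.05); the SE is the log2 fold change divided by the square root of F. CPM used TMM-scaled library sizes. Alternatives were RLE and upper-quartile scaling, DESeq2 1.42.0, limma-voom (limma 3.58.1), other filters, a replicate block, limma on log2(FPKM + 1) and log2(FPKM + 0.1) with a mean of at least 0.5 FPKM in a group or unfiltered, leaving out each library and, chosen after seeing the data, leaving out Rn45s and an offset for GC content and transcript length (mgcv 1.9.3). Scripts were tested on simulated data. A gene without a control read was set to a floor of 3 counts over the group, and ratios over 1 to 3 control reads have an exact 95% interval; both cover counting error only. Coordinates and overlaps are from GENCODE M21 (GRCm38), which held all 138 symbols, and promoter windows from RefSeq. Named in the text are up to 14 channel genes called higher and 10 called lower by smallest p, the 3 of each family with the highest control FPKM, up to 10 silent in control and at 1 CPM or more in 2KO, 9 fixed genes, up to 4 called genes of each list of other channels and partners, and further members where a group is described; some genes this rule takes are not reported here. The members, their groups and all lists were chosen with earlier results of these data known.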

Additional observations from a re-analysis of the deposited data

How the results depend on the processing

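The counts of channel genes called higher and lower, 25 and 1, stayed within 1.5 times of themselves for increases under each count-based setting (19 to 30) and not on the FPKM scale. With log2(FPKM + 1) filtered, log2(FPKM + 0.1) filtered and log2(FPKM + 1) unfiltered, 12, 7 and 0 channel genes were called higher and 0, 0 and 0 lower; the unfiltered fit called 0 genes of the whole table, and 37 channel genes had an unadjusted p under 0.05 in it. By family these 3 settings gave 5, 2 and 0 potassium, 1, 0 and 0 sodium and 6, 5 and 0 calcium channel genes higher, and 0 potassium channel genes lower. DESeq2 and the fit without a filter called 3 channel genes lower, all potassium, and the offset for GC content and transcript length called 2. Leaving out a library gave 19 to 29 channel genes higher and 1 to 3 lower, with 1 to 3 potassium channel genes lower (3 without control replicate 1, 2 without 2KO replicate 2). The count of 21 genes under 1 CPM in both controls and higher in both 2KO libraries was 35 at 2 CPM and 46 on FPKM at 1, and 30 to 38 with a library left out, which relaxes the condition. The stricter count of 9 was 6 at 0.5 CPM, 15 at 2 CPM and 18 on FPKM at 1, and 13 to 19 with a library left out. Where the cause of a difference is not in the setting's own construction, the cause was not tested.

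The libraries' replicate numbers pair them only by number: the difference between replicates 1 and 2 did not go together in the groups (r = -0.00218 across 15336 genes, which are not independent). With the replicate block 24 channel genes rose and 1 fell, and the call of Kcnj3 was the one lost. No called channel gene named here changed direction under any alternative fitted. Among genes that did not pass the test, the sign of the log2 fold change turned for Cacnb3 (-0.30 with the GC and length offset), Cacnb1 (-0.062 to 0.343 with a library left out, negative without 2KO replicate 1, and -0.43 with the offset) and Kcnq1 (-0.22 to 0.83 with a library left out, negative without control replicate 1, and -0.18 with the offset). Kcnq1ot1 turned to 0.004 with RLE scaling and with DESeq2, 0.048 with upper-quartile scaling, 0.002 with the 1 CPM filter, 0.11, 0.13 and 0.11 on the 3 FPKM settings, 0.29 without control replicate 2 and 0.26 without 2KO replicate 2 (-0.35 at the lowest, without 2KO replicate 1). Kcnn4 turned to 1.76 with limma-voom, 0.91 with the replicate block, 0.53 with log2(FPKM + 0.1), 6.48 without control replicate 2 and 0.18 without 2KO replicate 1 (-1.28 at the lowest, without control replicate 1). Kcna6 was called lower with DESeq2, without a filter, without control replicate 1 and with the offset (adjusted p = 0.0233, 0.00729, 0.000907 and 0.0352), and Kcne3 with DESeq2, without a filter, without control replicate 1 and without 2KO replicate 2 (adjusted p = 0.0463, 0.0289, 0.0405 and 0.0264). Gained as higher were Kcnn1 (4 settings) and Kcnj11 and Scn2b (without control replicate 1 each), with values beside their results. At this depth 48 channel genes had too few reads for a test.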
